A study of Mus musculus with 72 samples.

Results

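The SLC25 genes encode the mitochondrial carriers, and their transcripts were followed here in mouse liver over the day and in 2 sirtuin knockouts. A gene was taken as a member when its probe set carried a single annotated symbol made of Slc25a and a number, which gave 46 members among the 22180 genes that could be named. Each member had 1 probe set, and 40 members passed the filter on low levels, which kept 13308 of the 22180 genes. The other 6 (Slc25a27, Slc25a31, Slc25a41, Slc25a43, Slc25a53 and Slc25a54) had mean log2 levels between 4.83 and 5.77, under the limit of 6.00, and are described last.

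Livers were collected every 4 h under 12 h of light and 12 h of dark, from ZT0 to ZT20, where ZT (zeitgeber time) counts hours from lights on. The SIRT6 cohort, with the strain label 129 mixed, held wild-type (WT) mice and mice with a liver-specific knockout (KO) of SIRT6. The SIRT1 cohort, of strain C57BL/6, held WT mice and mice with a liver-specific KO of SIRT1. There were 3 arrays for each of the 24 combinations of cohort, genotype and time, 72 in all, and nothing in the labels says that replicates came from separate mice, so the p-values measure only the spread between these samples. The labels name neither the ages nor the Cre driver. SIRT6 and SIRT1 are NAD-dependent deacylases, and the design allows daily liver transcription to be compared without one or the other. KO below means the arrays labelled so.

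Mitochondrial carriers sit in the inner mitochondrial membrane and move small molecules between the matrix and the cytosol. They include the ADP/ATP and phosphate carriers that serve oxidative phosphorylation, the citrate, malate and 2-oxoglutarate carriers, the aspartate/glutamate and ornithine carriers used by the malate-aspartate shuttle and the urea cycle, and the carriers for carnitine, iron, glutathione, folate, coenzyme A and NAD. In liver they connect mitochondrial oxidation with lipid synthesis, gluconeogenesis and urea formation, processes that follow the daily feeding cycle.

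The values below are log2(intensity + 16) unless stated, a difference is KO minus WT on that scale, and a gene is called when its p, adjusted by Benjamini-Hochberg over all tested genes in limma, is under 0.05. The knockouts were not visible at the array's own probe sets: Sirt6 was higher in the 18 KO arrays of the SIRT6 cohort (7.89 ± 0.10, SD) than in the 18 WT arrays (7.32 ± 0.18), with no overlap, and Sirt1 was 8.74 ± 0.11 against 8.74 ± 0.18 in the SIRT1 cohort. Whether these probe sets lie in the deleted parts is not known, so they check nothing, and all directions below rest on the labels. The 6 hepatocyte markers were all above the filter. The other markers were of bile duct, endothelial, stellate and Kupffer cells, lymphocytes, muscle, red cell precursors and the acute phase. Of those above the filter 0 were called by limma in either day-averaged KO comparison. Across all genes 6.61% were called in the SIRT6 and 2.27% in the SIRT1 cohort. Cd79a, Ms4a1, Krt7, Ckm and Myh4 were under the filter and not tested. Of the 5 red cell precursor markers 1 was on the array. Arrays of the SIRT6 cohort differed more within groups, with 52.6% of the within-group variance on 1 component against 18% in the SIRT1 cohort. The summed intensity of 7 Kupffer cell markers ran in SIRT6 cohort WT arrays from 1537 to 9271 and in KO arrays from 1905 to 11290. That of 7 lymphocyte markers ran from 244.5 to 2310 in WT and from 242.4 to 3254 in KO. Their part in the results below was not tested.

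Promoter sequences were searched for short motifs, several of which the clock acts on. No link between a motif and a rhythm was tested. RefSeq promoters (build GRCm38.p6) were found for 36 of the 46 members, 46 promoters in all, and the 250 bases before each start were searched on both strands. None was found for Slc25a2, Slc25a26, Slc25a27, Slc25a32, Slc25a35, Slc25a37, Slc25a41, Slc25a44, Slc25a46 and Slc25a51. The E-box CACGTG, bound by CLOCK and BMAL1, was present in 8 of the 46 (17.4%) and in 6.02% of all 32851 promoters. Those 8 belonged to Slc25a1, Slc25a13, Slc25a14, Slc25a15, Slc25a31, Slc25a33 and Slc25a36. Overlapping promoters of Slc25a14 held the same E-box, 54 and 184 bases before their starts, so this site was counted more than once. Promoters, not genes, were counted, in the family as in the whole set. The D-box TTANGTAA, bound by the PAR bZIP factors, was present in 1 (2.17% against 2.06%), and the ROR element TNGGTCA, bound by ROR and REV-ERB receptors, in 5 (10.9% against 9.19%). The cAMP response element TGACGTCA was present in 2 (4.35% against 1.55%), and the sterol regulatory element TCACNCCAC in 1 (2.17% against 1.05%). A match is only a run of letters and was not tested as a binding site. The promoters of the 2 carriers called in the SIRT6 knockout with the smallest p, and of 4 carriers with a daily rhythm, read as follows, 5′ to 3′ up to the base before the start, with motif matches in capitals.
Slc25a1, chr16:17928220-17928469, minus strand: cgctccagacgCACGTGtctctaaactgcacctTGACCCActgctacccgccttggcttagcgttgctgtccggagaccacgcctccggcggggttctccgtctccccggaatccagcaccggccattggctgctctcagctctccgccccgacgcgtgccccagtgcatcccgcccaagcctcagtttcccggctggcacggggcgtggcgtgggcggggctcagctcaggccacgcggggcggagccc
Slc25a48, chr13:56438105-56438354, plus strand: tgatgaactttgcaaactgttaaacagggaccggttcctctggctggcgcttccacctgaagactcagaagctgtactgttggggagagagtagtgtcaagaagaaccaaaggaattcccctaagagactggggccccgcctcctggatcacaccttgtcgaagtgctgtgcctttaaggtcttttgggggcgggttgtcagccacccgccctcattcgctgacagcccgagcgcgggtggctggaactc
Slc25a13, chr6:6217174-6217423, minus strand: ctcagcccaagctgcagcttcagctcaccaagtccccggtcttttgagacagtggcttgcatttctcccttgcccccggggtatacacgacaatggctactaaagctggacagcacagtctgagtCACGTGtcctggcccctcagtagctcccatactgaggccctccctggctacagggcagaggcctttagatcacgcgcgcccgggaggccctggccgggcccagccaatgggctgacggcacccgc
Slc25a15, chr8:22398278-22398527, minus strand: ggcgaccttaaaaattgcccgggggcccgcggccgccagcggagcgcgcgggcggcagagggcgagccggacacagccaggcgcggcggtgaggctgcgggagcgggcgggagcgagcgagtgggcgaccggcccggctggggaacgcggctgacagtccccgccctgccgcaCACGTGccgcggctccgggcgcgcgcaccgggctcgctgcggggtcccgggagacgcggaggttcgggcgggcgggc
Slc25a25, chr2:32424067-32424316, minus strand: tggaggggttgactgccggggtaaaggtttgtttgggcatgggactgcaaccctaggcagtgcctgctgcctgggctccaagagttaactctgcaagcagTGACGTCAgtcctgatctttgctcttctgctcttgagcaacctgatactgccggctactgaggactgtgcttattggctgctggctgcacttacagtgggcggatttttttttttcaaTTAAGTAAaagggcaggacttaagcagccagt
Slc25a47, chr12:108850879-108851128, plus strand: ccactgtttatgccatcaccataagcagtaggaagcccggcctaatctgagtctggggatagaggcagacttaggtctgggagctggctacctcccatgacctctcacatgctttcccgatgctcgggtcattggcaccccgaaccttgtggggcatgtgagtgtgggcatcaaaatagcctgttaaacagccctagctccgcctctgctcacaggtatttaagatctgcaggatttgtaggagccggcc

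In the Slc25a1 sequence the capitals are an E-box that begins 239 bases before the start and a ROR element, on the reverse strand, 217 bases before it. Slc25a13 had its E-box 125 bases and Slc25a15, at the start shown, 77 bases before the start. In Slc25a25 the cAMP response element lay 150 bases and the D-box 32 bases before the start shown, while its other annotated starts held neither. Slc25a47 and Slc25a48 held none of the 5 motifs in this window.

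Averaged over the day, 3 carriers were called in the SIRT6 cohort, all lower in the KO: Slc25a1, Slc25a48 and Slc25a38. They belong to different transport classes, a citrate carrier, a choline carrier and a glycine carrier. Across all genes 6.61% were called, 3.39% higher and 3.22% lower, and the 3 of 40 carriers (7.5%) were close to that share. The differences were small, all under 1.1-fold.

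Slc25a1 exports citrate to the cytosol, where it is cleaved to acetyl-CoA for fatty acid and sterol synthesis. Its 18 WT arrays ran from 11.66 to 11.92 with a median of 11.79, and its 18 KO arrays from 11.48 to 11.84 with a median of 11.66. The ranges overlapped, but 16 of the 18 KO arrays lay below the WT mean of their own time, the KO mean was lower at 6 of 6 times, and 9 KO arrays lay below every WT array. The difference was -0.13 ± 0.03 (SE; 1.09-fold lower, limma adjusted p = 0.00806). It was widest at ZT0, where the WT arrays read 11.92, 11.77 and 11.88 and the KO arrays 11.67, 11.65 and 11.67. The call was kept without any single array (adjusted p 0.00222 to 0.0164) and ended when array medians were centred (-0.13 ± 0.05, adjusted p = 0.13).

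Slc25a48, which imports choline for oxidation to betaine, had lower KO means at ZT0, ZT4 and ZT8 and a higher one at ZT20. Of these times only ZT8 was called. The gene was named in advance because earlier results of these data had called it for a shifted peak. Its pattern over the times is therefore no support for such a shift. At ZT8 the WT arrays read 7.84, 8.04 and 7.98 and the KO arrays 7.48, 7.46 and 7.61, so the groups did not overlap. This was -0.44 ± 0.08 (1.35-fold lower, adjusted p = 0.0155 over all genes and times), the only carrier called at a single time, where 0.473% of genes were called at 1 or more times in the SIRT6 cohort. At ZT0 the WT arrays read 8.01, 8.14 and 8.18 and the KO arrays 7.71, 7.77 and 7.80 (difference -0.35 ± 0.08, adjusted p = 0.0905). At ZT4 all 3 KO arrays were again below all 3 WT arrays, and at ZT12 and ZT16 the groups overlapped. At ZT20 the order turned, with WT arrays at 7.86, 7.75 and 7.86 and KO arrays at 8.16, 8.01 and 8.21 (difference 0.30 ± 0.08, adjusted p = 0.17). Averaged over the day this left -0.13 ± 0.03 (adjusted p = 0.0152), with 12 of 18 KO arrays below the WT mean of their time. The ZT8 call ended with quantile normalization, with centred medians (-0.42 ± 0.11, adjusted p = 0.202), and without WT replicate 2 or 3 or KO replicate 1 or 2 of that time (adjusted p up to 0.0818); the averaged call ended with both scalings and with 1 fit of all 72 arrays (adjusted p up to 0.158).

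Slc25a38, the glycine carrier that feeds the first step of heme synthesis, ran from 8.44 to 8.80 in WT (median 8.69) and from 8.32 to 8.80 in KO (median 8.57). The difference was -0.11 ± 0.03 (1.08-fold lower, adjusted p = 0.0465), with 14 of 18 KO arrays below the WT mean of their time; the KO mean was lower at 4 of 6 times, most at ZT4 (-0.25 ± 0.08, adjusted p = 0.321). This is the weakest of the 3 calls: it was lost for 26 of 36 arrays left out in turn (adjusted p 0.0147 to 0.0839), and with quantile normalization (adjusted p = 0.0687), centred medians (0.115), no filter (0.0834) or the replicate block (0.0604).

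**Figure D1:**
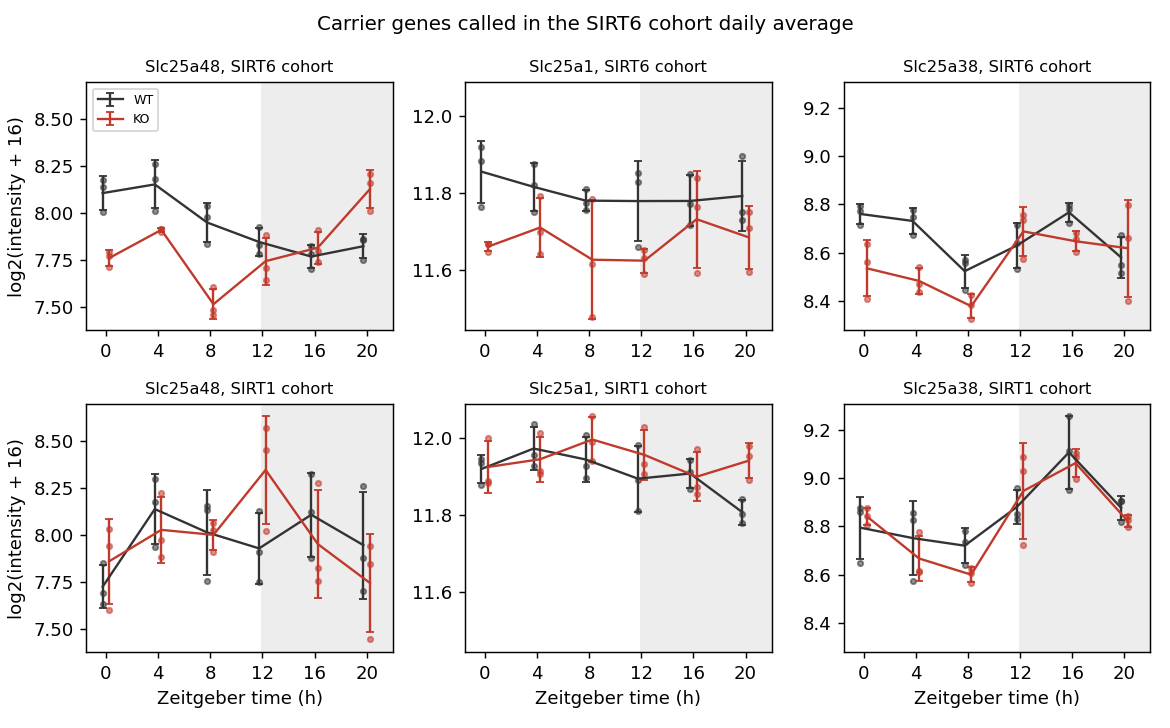
Levels of the 3 carriers called in the SIRT6 cohort day average, as log2(intensity + 16) against zeitgeber time in h, in the SIRT6 cohort (top) and the SIRT1 cohort (bottom). Points are arrays, lines join group means and bars are SD over 3 arrays; grey marks the dark phase. In the SIRT6 cohort Slc25a48 KO arrays lie below WT at ZT0 to ZT8 and above at ZT20, and Slc25a1 KO means lie below WT at 6 of 6 times.

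Over all 40 tested carriers of the SIRT6 cohort, the called ones included, 16 had a higher and 24 a lower mean in KO. Of all genes 51.7% had a higher mean. The median difference was -0.01 over the carriers and 0.00 over all genes. The di- and tricarboxylate carriers moved in both directions: beside Slc25a1, the 2-oxoglutarate/malate carrier Slc25a11 had a difference of 0.10 ± 0.03 (adjusted p = 0.0506), higher at 6 of 6 times. The 6 tested ADP/ATP, phosphate and ATP-Mg carriers gave 0 calls, and so did the 10 tested cofactor, nucleotide and glutathione carriers and both iron carriers. In that cofactor group the mitochondrial NAD carrier Slc25a51 had the widest difference of all 40 (-0.36 ± 0.12, 1.29-fold lower), which missed the threshold (adjusted p = 0.0666). Its KO arrays at ZT4 read 8.11, 8.51 and 8.07, all below the WT arrays at 9.33, 8.69 and 8.64, and the groups overlapped at the other times, ZT8 included, where the difference was widest (-0.73 ± 0.29, adjusted p = 0.499). The aspartate/glutamate carrier Slc25a12 was the highest (0.15 ± 0.06, adjusted p = 0.112). The scaling decided some of these: with quantile normalization Slc25a11 (0.11 ± 0.03, adjusted p = 0.0143) and Slc25a12 (0.16 ± 0.05, adjusted p = 0.0307) were called higher, and with centred medians Slc25a12 was the only carrier called (0.15 ± 0.04, adjusted p = 0.0289).

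**Figure D2:**
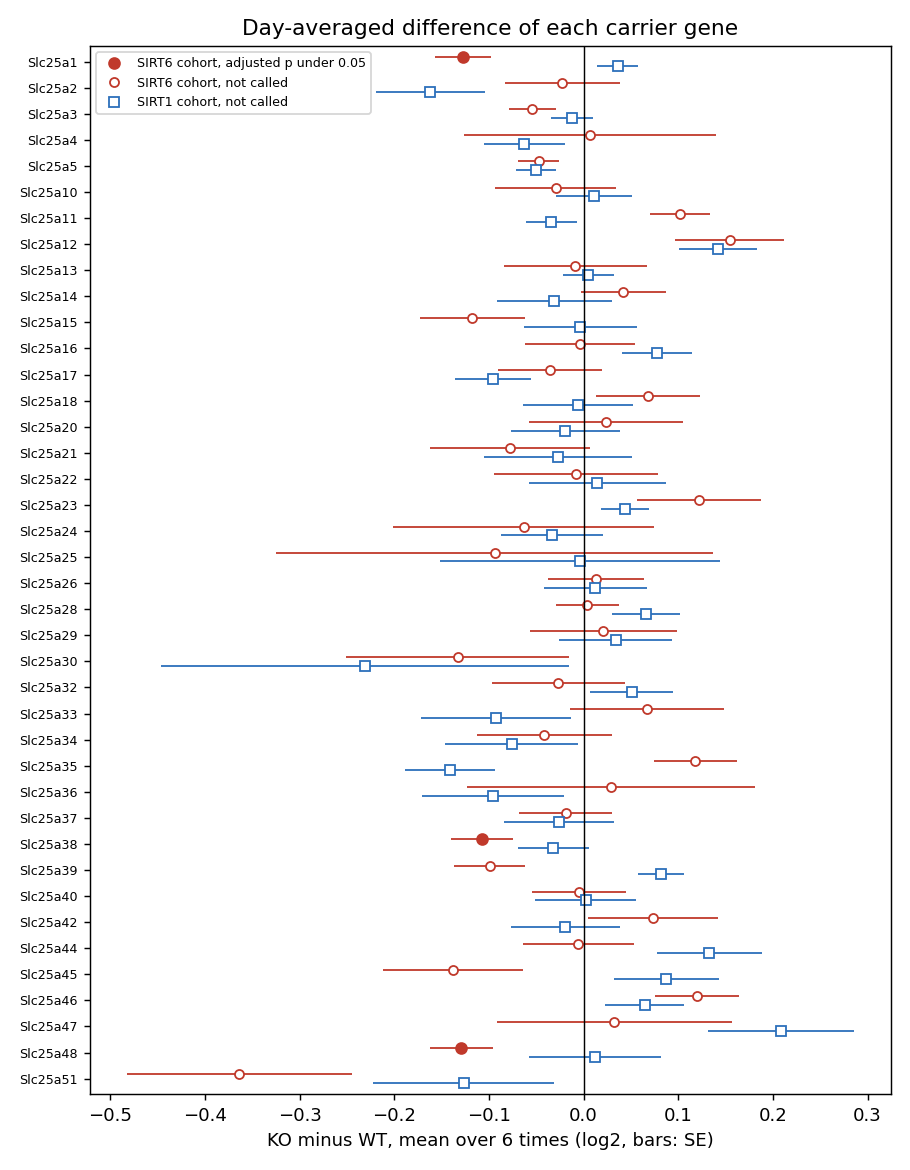
Difference between KO and WT averaged over 6 times (log2, horizontal axis) for each of the 40 tested carriers, with bars of 1 SE; red circles are the SIRT6 cohort, blue squares the SIRT1 cohort, and filled symbols passed an adjusted p of 0.05. The 3 filled symbols are Slc25a1, Slc25a38 and Slc25a48 of the SIRT6 cohort, and Slc25a51 has the lowest value at -0.36.

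In the SIRT1 cohort 0 of the 40 carriers were called in the day average by limma, where 2.27% of genes were called (1.06% higher and 1.21% lower); 9 carriers had an unadjusted p under 0.05, as did 2399 genes (18%). Slc25a12 came nearest: its WT arrays ran from 8.36 to 8.97 (median 8.72) and its KO arrays from 8.52 to 9.14 (median 8.80). The ranges overlapped widely, yet 16 of 18 KO arrays were above the WT mean of their time and the KO mean was higher at 6 of 6 times (0.14 ± 0.04, adjusted p = 0.0592). Centred medians put it past the threshold (0.13 ± 0.04, adjusted p = 0.0465), as did leaving out WT ZT0 replicate 1, WT ZT12 replicate 3 or KO ZT20 replicate 1. Slc25a39, which imports glutathione, was next (0.08 ± 0.02, adjusted p = 0.0668), and Slc25a35, placed with the dicarboxylate carriers, was lower (-0.14 ± 0.05, adjusted p = 0.109). The liver-enriched carrier Slc25a47 had the highest estimate of the 40 in this cohort (0.21 ± 0.08, adjusted p = 0.144).

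At single times the SIRT1 cohort gave 0 calls among the carriers, and 0% of all genes were called in limma. An unadjusted p under 0.05 at 1 or more of the 6 times was found for 19 carriers and 5143 genes (38.6%). The smallest p belonged to Slc25a39 at ZT0 (0.23 ± 0.06, adjusted p = 0.313). The oxoadipate carrier Slc25a21 at ZT12 had a difference of -0.66 ± 0.19 (adjusted p = 0.361), and Slc25a12 at ZT0 one of 0.34 ± 0.10 (adjusted p = 0.368). Slc25a48, lower in the SIRT6 KO at ZT8, differed by -0.01 ± 0.17 at ZT8 in the SIRT1 cohort (adjusted p = 0.99) and by 0.01 in the day average (adjusted p = 0.944). The difference between its day-averaged KO effects was not called (-0.14 ± 0.08, adjusted p = 0.324), and the difference at ZT8 was not tested.

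A direct test of the difference between the KO effects, each against its own WT, called 4 carriers of 40 where 5.76% of genes were called (10% of the carriers); 2 were higher and 2 lower, against 2.54% and 3.22% of genes. Slc25a1 differed by -0.16 ± 0.04 (adjusted p = 0.00252) with effects of -0.13 (SIRT6 cohort) and 0.04 (SIRT1 cohort). Slc25a39 ran in the SIRT6 cohort from 11.20 to 11.55 in WT (median 11.38) and from 11.08 to 11.52 in KO (median 11.26). Its SIRT1 cohort arrays ran from 11.21 to 11.67 in WT (median 11.48) and from 11.45 to 11.72 in KO (median 11.54). The ranges overlapped, but 15 of 18 KO arrays lay below the WT mean of their time in the first cohort and 15 of 18 above it in the second. The effects were -0.10 ± 0.04 and 0.08 ± 0.02, neither called alone, and they differed by -0.18 ± 0.04 (adjusted p = 0.00766). Slc25a35 had medians of 6.51 in WT and 6.66 in KO of the SIRT6 cohort, where 14 of 18 KO arrays were above the WT mean of their time. Its SIRT1 cohort medians were 6.66 in WT and 6.58 in KO, with 16 of 18 KO arrays below. The effects were 0.12 ± 0.04 and -0.14 ± 0.05, a difference of 0.26 ± 0.06 (adjusted p = 0.00773). Slc25a11, with 15 of 18 KO arrays above in the first cohort and 14 of 18 below in the second, differed by 0.14 ± 0.04 (adjusted p = 0.034; effects 0.10 and -0.03). Of these 4, Slc25a39 kept its call under every alternative run at this threshold, Slc25a1 lost it with centred medians (adjusted p = 0.0962), Slc25a35 with quantile normalization, and Slc25a11 with centred medians, with no filter, without the pair of arrays least like their replicates, and without any of 5 single arrays (SIRT6 cohort WT ZT4 replicate 3, WT ZT8 replicate 1 and KO ZT12 replicate 2, SIRT1 cohort WT ZT16 replicate 1 and KO ZT4 replicate 3; adjusted p up to 0.0529). The cohorts differ in strain as well as in the deleted gene, and these cannot be told apart.

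More carriers were called for a daily rhythm than for an effect of either knockout. A 24 h cosine fitted to all 36 arrays of a cohort called 21 of 40 carriers in the SIRT1 cohort (52.5%) where 38.8% of all genes were called, and 10 of 40 in the SIRT6 cohort (25%) where 26.4% were. Amplitude is the fitted peak minus trough; its median over the 40 carriers was 0.22 in the SIRT1 cohort (all genes 0.18) and 0.21 in the SIRT6 cohort (all genes 0.18). Both cohorts called Slc25a25, Slc25a28, Slc25a35, Slc25a37, Slc25a44 and Slc25a47, which is 15% of the carriers where 19.2% of genes were called in both. In the 18 arrays of single genotypes the counts were 3 (SIRT6 cohort WT, all genes 10.1%), 8 (SIRT6 KO, 10.6%), 12 (SIRT1 cohort WT, 18.3%) and 13 (SIRT1 KO, 23.2%).

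**Figure D3:**
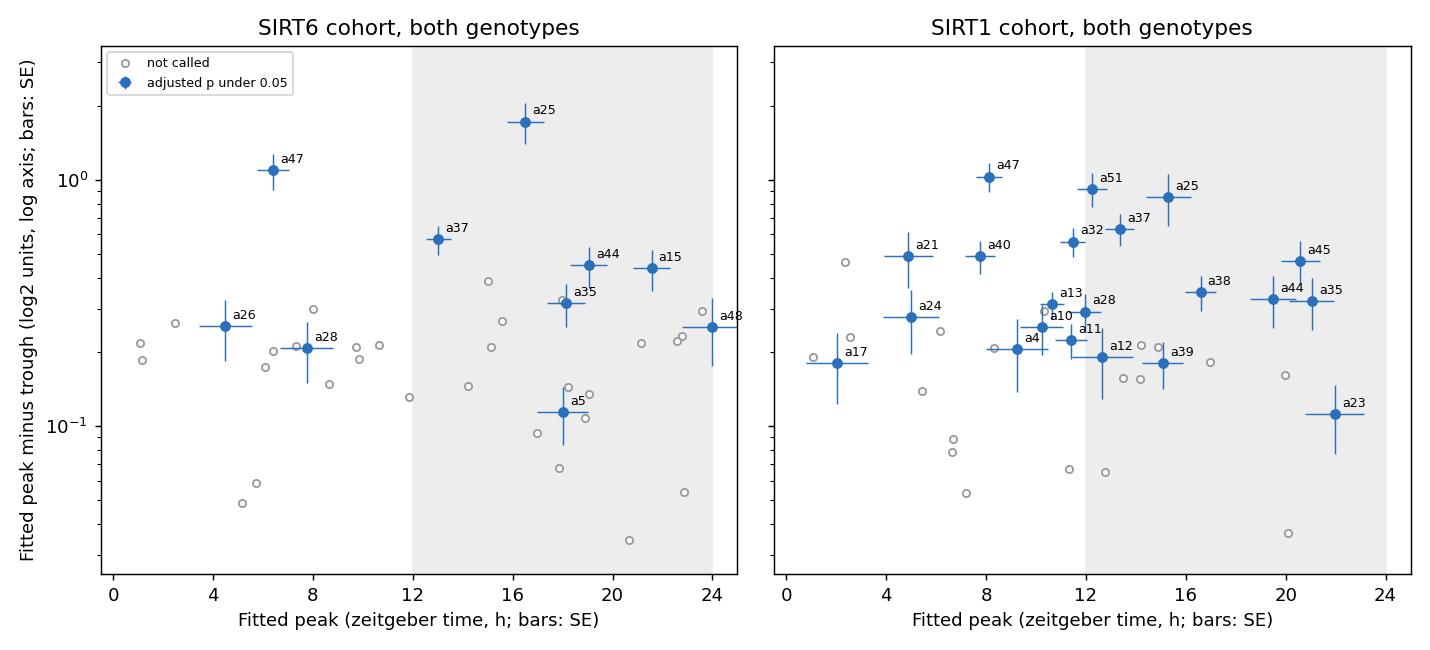
Fitted peak time (h) and amplitude (peak minus trough, log2 units, on a log axis) of the 40 tested carriers in each cohort, both genotypes together; filled points passed an adjusted p of 0.05, bars are SE, labels leave out Slc25, and grey marks the dark phase. Slc25a25 and Slc25a47 have the highest amplitudes in the SIRT6 cohort. In the SIRT1 cohort 11 of the 21 filled points lie in the light phase (52.4%, against 56.6% of all called genes).

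Both iron carriers were called rhythmic in both cohorts. Slc25a37 (mitoferrin 1), which brings iron into the matrix for heme and iron-sulfur clusters, was the only carrier called in each of the 4 sets of 18 arrays, as were 3.19% of all genes. Its SIRT6 cohort arrays at ZT4 read 8.77, 8.93 and 8.89 in WT and 8.43, 8.87 and 8.71 in KO, and at ZT12 they read 9.27, 9.60 and 9.39 in WT and 9.21, 9.41 and 9.28 in KO, so the times did not overlap. Amplitude was 0.57 ± 0.08 with a peak at ZT13.0 (adjusted p = 2.23e-06) in that cohort and 0.63 ± 0.10 with a peak at ZT13.4 (adjusted p = 7.45e-06) in the SIRT1 cohort. Its paralog Slc25a28 (mitoferrin 2) had amplitudes of 0.21 and 0.29, with peaks at ZT7.75 and ZT11.95 (adjusted p = 0.0189 and 8.01e-05). Centred medians and the F test over times ended the SIRT6 cohort call of Slc25a28 (adjusted p up to 0.234) and the SIRT6 cohort WT call of Slc25a37 (up to 0.107).

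Slc25a47, a carrier enriched in liver whose substrate is not settled, changed about 2-fold over the day. In the SIRT1 cohort its arrays at ZT8 read 11.02, 11.65 and 11.80 in WT and 12.09, 12.10 and 11.82 in KO. At ZT16 they read 11.26, 10.75 and 11.30 in WT and 11.06, 10.57 and 10.83 in KO, below the ZT8 arrays except for WT replicate 1 of ZT8. Amplitude was 1.03 ± 0.14 (2.04-fold) with a peak at ZT8.1 (adjusted p = 1.15e-06) there, and 1.09 ± 0.18 (2.13-fold) with a peak at ZT6.4 (adjusted p = 0.000105) in the SIRT6 cohort. Its genotypes peaked at ZT9.6 (WT) and ZT6.6 (KO) in the SIRT1 cohort, but the test of a rhythm difference gave an adjusted p of 0.651.

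Among the ADP/ATP, phosphate and ATP-Mg carriers, Slc25a25, a calcium-regulated ATP-Mg/phosphate carrier, had the largest amplitude of the family in the SIRT6 cohort. Its SIRT6 cohort arrays at ZT4 read 9.03, 6.68 and 6.96 in WT and 7.13, 7.52 and 6.59 in KO, against 9.65, 9.04 and 9.72 in WT and 9.16, 9.36 and 8.90 in KO at ZT12. All ZT4 arrays but WT replicate 1 were lower than all ZT12 arrays. Amplitude was 1.73 ± 0.33 (3.31-fold, peak ZT16.5, adjusted p = 0.000646), and 0.85 ± 0.20 (peak ZT15.3, adjusted p = 0.00294) in the SIRT1 cohort. The KO set alone was called in the SIRT6 cohort (adjusted p = 0.0254, lost without any of the 3 KO ZT4 arrays, up to 0.0704), and the WT set was not (adjusted p = 0.0813). The main liver ADP/ATP carrier gene Slc25a5 had a small amplitude of 0.11 ± 0.03 in the SIRT6 cohort (adjusted p = 0.015), and Slc25a4, Slc25a23 and Slc25a24 were called in the SIRT1 cohort with amplitudes of 0.21, 0.11 and 0.28. Slc25a4 lost its call for 19 of 36 arrays left out in turn (adjusted p up to 0.084), with no filter and with the replicate block (0.0515), and Slc25a23 with centred medians, no filter, no trend and the F test (up to 0.091) and without any of 4 arrays (WT ZT8 replicate 2, WT ZT20 replicate 1, KO ZT8 replicate 3 and KO ZT12 replicate 3; up to 0.065). The Slc25a5 call ended with centred medians and the F test (up to 0.14).

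**Figure D4:**
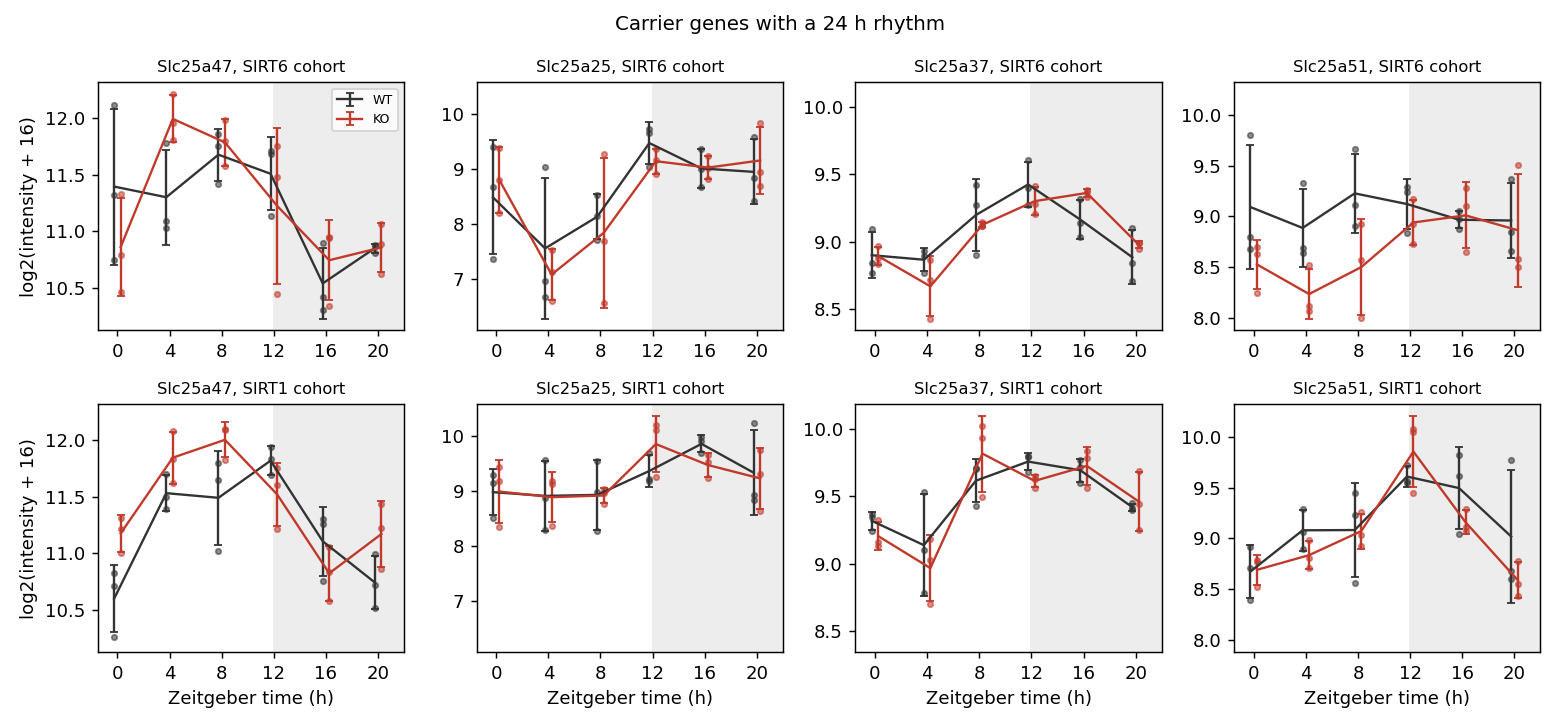
Levels of 4 carriers as log2(intensity + 16) against zeitgeber time in h, SIRT6 cohort on top and SIRT1 cohort below; points are arrays, lines join group means, bars are SD over 3 arrays, and grey marks the dark phase. Slc25a47 has its highest group means between ZT4 and ZT12, Slc25a37 between ZT8 and ZT16, and Slc25a51 has its highest SIRT1 cohort means at ZT12 (9.61 in WT and 9.86 in KO).

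Of the 9 amino acid carriers, 4 were called in the SIRT1 cohort, near the 38.8% of all genes. Slc25a13, the liver aspartate/glutamate carrier of the malate-aspartate shuttle and urea cycle, whose promoter is shown above, had the smallest p of the family there. At ZT12 its arrays read 11.34, 11.38 and 11.44 in WT and 11.35, 11.38 and 11.36 in KO, and at ZT0 they read 11.05, 11.06 and 11.07 in WT and 11.08, 11.05 and 11.26 in KO. All ZT12 arrays were above all ZT0 arrays, and amplitude was 0.31 ± 0.04 (peak ZT10.7, adjusted p = 2.49e-07). It was not called in the SIRT6 cohort (0.21 ± 0.11, adjusted p = 0.325). The ornithine carrier Slc25a15, which supplies the urea cycle and also holds an E-box, was called in the SIRT6 cohort (0.44 ± 0.08, peak ZT21.6, adjusted p = 0.000563). It was not called in the SIRT1 cohort (adjusted p = 0.342). The rhythm difference between the cohorts was not called for either gene (adjusted p = 0.267 and 0.333). Of the other genes with an E-box, Slc25a1, Slc25a14, Slc25a33 and Slc25a36 were called over both genotypes in neither cohort, and Slc25a31 was under the filter. Slc25a28 and Slc25a47, called in both cohorts, held none of the motifs searched. Slc25a35, Slc25a37 and Slc25a44, also called in both cohorts, had no promoter to search. The same holds for Slc25a32 and Slc25a51, called in the SIRT1 cohort. A link between E-box and rhythm was not tested. Slc25a44, a carrier of branched-chain amino acids, peaked at ZT19.0 and ZT19.5 (amplitudes 0.45 and 0.33). Slc25a38, lower in the SIRT6 KO, had a rhythm in the SIRT1 cohort (0.35 ± 0.06, peak ZT16.6, adjusted p = 2.77e-05).

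Of the 10 tested cofactor, nucleotide and glutathione carriers, 5 were called in the SIRT1 cohort (38.8% of all genes) and 1, Slc25a26, in the SIRT6 cohort (26.4%). The Slc25a26 call ended with quantile normalization, with centred medians and without the pair of arrays least like their replicates (adjusted p up to 0.0876). The NAD carrier Slc25a51 reached 9.56, 9.54 and 9.73 in WT and 9.45, 10.08 and 10.04 in KO at ZT12 of the SIRT1 cohort, above the ZT0 arrays at 8.92, 8.39 and 8.71 in WT and 8.78, 8.52 and 8.77 in KO. Amplitude was 0.92 ± 0.15 (1.89-fold, peak ZT12.2, adjusted p = 1.61e-05). In the SIRT6 cohort it was called in KO (0.78 ± 0.21, adjusted p = 0.0482, lost for 11 of 18 arrays left out in turn). That call also ended with quantile normalization, centred medians, no filter, the replicate block, no trend and the F test (adjusted p up to 0.441). The rhythm difference between WT and KO was not called (adjusted p = 0.6). The folate carrier Slc25a32 had an amplitude of 0.56 ± 0.07 (peak ZT11.5, adjusted p = 6.57e-07) in the SIRT1 cohort. The glutathione carriers Slc25a39 and Slc25a40 peaked at ZT15.1 and ZT7.8 there, with amplitudes of 0.18 and 0.49. Of the dicarboxylate carriers, Slc25a10 (ZT10.2) and Slc25a11 (ZT11.4) peaked close together in the SIRT1 cohort, Slc25a21 at ZT4.9 and Slc25a35 at ZT21.0. Slc25a17, a peroxisomal carrier of coenzyme A and related cofactors, had an amplitude of 0.18 there (peak ZT2.03, adjusted p = 0.0373, lost for 12 of 36 arrays left out in turn, with no filter and with the F test, up to 0.201), and Slc25a45, whose substrate is not settled, one of 0.47 (peak ZT20.58, adjusted p = 0.00059). Slc25a26, which brings S-adenosylmethionine into the matrix, and the coenzyme A carrier Slc25a42 were called in the SIRT1 KO set. Neither tested member of the uncoupling-related group (Slc25a14 and Slc25a30) was called over both genotypes of either cohort, nor was the carnitine carrier Slc25a20.

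Slc25a48 had the smallest p of the family for a rhythm difference between genotypes, in the SIRT6 cohort. It was named in advance because earlier results of these data had called it for a shifted peak. Its rank and p are therefore no support for such a shift. Its SIRT6 cohort WT cosine had an amplitude of 0.39 ± 0.07 and a peak at ZT3.25 ± 0.69 h (adjusted p = 0.00592), and the KO cosine an amplitude of 0.39 ± 0.11 and a peak at ZT20.64 ± 1.04 h (adjusted p = 0.0556). The KO peak thus came 6.61 h earlier at a near-equal amplitude, with the highest KO mean at ZT20 (8.13) and the highest WT mean at ZT4 (8.15). The limma interaction of genotype and cosine over 36 arrays called 0 of the 40 carriers and 0.00751% of genes. An unadjusted p under 0.05 was found for 2 carriers and for 8.25% of genes. Next after Slc25a48 came Slc25a51 (adjusted p = 0.6) and Slc25a30 (0.649). For Slc25a48 the adjusted p was 0.209 across all 13308 genes (unadjusted 0.000166), so it was not called. This adjusted p was 0.985 with quantile normalization and 0.949 with centred medians. Corrected only over the 2180 genes rhythmic in WT or KO, the adjusted p was 0.0376 on the values as deposited, and 0.596% of those genes and 1 of 9 carriers were called. That set is chosen by the rhythm calls of the same arrays, which Slc25a48 entered through WT alone, so this value describes the gene and is no support for a moved peak. In the SIRT1 cohort the rhythm difference called 0 carriers and 0% of genes in limma. There 3 carriers and 965 genes (7.25%) had an unadjusted p under 0.05. The smallest p belonged to Slc25a47, Slc25a32 and Slc25a46 (adjusted p = 0.651, 0.673 and 0.688). Slc25a48 had an adjusted p of 0.82. Its SIRT6 cohort WT rhythm call ended with quantile normalization, centred medians and the F test over times (adjusted p up to 0.0781), and its call over both genotypes (adjusted p = 0.0424) was lost for 23 of 36 arrays left out in turn (up to 0.0749).

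Peaks of the 6 carriers called in both cohorts lay within 2 h of each other for 4 of them (66.7%; 65.5% of the 2559 genes called in both), with a median distance of 1.46 h. The widest was Slc25a28, at 4.2 h. In a test of cohort and cosine that was added after the data were examined, 2 carriers differed in rhythm between cohorts, where 2.35% of genes did. Slc25a28 came next and was not called (adjusted p = 0.076). Slc25a40 had an amplitude of 0.49 ± 0.08 in the SIRT1 cohort and 0.05 in the SIRT6 cohort (adjusted p of the difference 0.0239). At ZT8 its SIRT1 cohort arrays read 7.45, 7.30 and 7.38 in WT and 7.65, 7.49 and 7.63 in KO, and at ZT20 they read 7.05, 7.32 and 7.05 in WT and 6.86, 6.91 and 6.98 in KO, with 1 WT array overlapping. For Slc25a48 the cosine shared by both genotypes peaked at ZT23.97 in the SIRT6 cohort, between the separate peaks of WT (ZT3.25) and KO given above. In the SIRT1 cohort it peaked, not called, at ZT10.3. The difference between cohorts (adjusted p = 0.04) was lost for 19 of 72 arrays left out in turn (up to 0.0699). It also ended with no filter, with the F test and without the pair of arrays least like their replicates (up to 0.243). Of the called carriers 3 of 10 (30%) peaked in the light in the SIRT6 cohort (58.1% of called genes), and 11 of 21 (52.4%) in the SIRT1 cohort (56.6%).

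Genes that work beside the carriers were read from lists of related genes, where the share of all genes called was 6.61% in the SIRT6 and 2.27% in the SIRT1 day average; with 0 or 1 call per list and cohort, the counts say nothing particular about any list. Of 4 further family members with other symbols on the array 2 were tested and 0 called in either KO. Among 14 tested transport proteins of the inner and outer membrane, Vdac2, the outer membrane porin, was lower in the SIRT6 KO (-0.13 ± 0.03, adjusted p = 0.0155) and Letm1 higher in the SIRT1 KO (0.17 ± 0.04, adjusted p = 0.0233). Of 11 carrier import genes, Timm22, the core of the translocase that inserts carriers into the inner membrane, was higher in the SIRT6 KO (0.23 ± 0.04, adjusted p = 0.000747) and Timm13, a chaperone of that route, in the SIRT1 KO (0.15 ± 0.04, adjusted p = 0.0397). Of 20 enzymes that use carried substrates, 1 was called in the SIRT6 KO: Chdh, choline dehydrogenase, which oxidizes the choline that Slc25a48 imports, was higher (0.18 ± 0.04, adjusted p = 0.00287) while Slc25a48 was lower. Acly, which cleaves the citrate that Slc25a1 exports, was not called in either KO; its rhythm in the SIRT6 cohort had an amplitude of 1.01 ± 0.11 with a peak at ZT19.7 (adjusted p = 7.48e-08).

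The 6 members under the filter, among them the testis-type ADP/ATP carrier Slc25a31 and the uncoupling-related Slc25a27, gave no adjusted p under 0.05 in any of the comparisons when the filter was lifted. The smallest unadjusted p among them was 0.0131, for Slc25a41 in the SIRT6 cohort at a single time (-0.38, adjusted p = 0.548).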

How the data were processed

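Mouse liver RNA samples, 72 in all, were hybridised to single-colour Affymetrix arrays, 1 sample per array. Per the submitters' processing notes the authors used Affymetrix Expression Console 1.1.1 and PLIER 2.0; of settings and genome build the labels say nothing. The deposited table holds intensity per probe set on a linear scale, with array medians of 43.9 to 53.8. Columns were matched to samples by name, with 0 unmatched. Of 41345 probe sets, 23521 carried 1 symbol, 1814 several and 16010 none, and only the first were named. The probe set of highest mean stood for a gene (1 per carrier), and a probe set listed for both Rangrf and Slc25a35 was not used. Values were taken as log2(intensity + 16) and the lowest 40% of genes by mean left out.

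Tests used limma 3.58.1 in R 4.3.3 with a mean-variance trend: 12 group means per cohort for KO minus WT, averaged and at each time (1 correction over genes and times), a 24 h cosine for rhythms with its interaction with genotype or cohort, and 24 group means over 72 arrays for the difference between KO effects. Steps were tested on simulated data. The number of arrays limits the precision. Members and gene lists were chosen with earlier results of these data known. Named are Slc25a48, every carrier called, the 3 of smallest p where fewer than 3 were called, with others named by role after their values were seen. Alternatives were quantile normalization, centred array medians, a pseudocount of 1 or of 64, the filter dropped or raised to 60%, a replicate block, array weights, no trend, the mean of probe sets, a joint fit of the 72 arrays, an F test over times, a stricter threshold (0.01), correction over rhythmic genes only, and each array left out in turn. Leaving out the pair of SIRT6 cohort arrays least like their replicates (WT ZT12 replicate 1 and WT ZT16 replicate 3) was added after the data were examined.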

Additional observations from a re-analysis of the deposited data

Results flagged for a closer look

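A difference between the cohorts, tested directly, marked 6 results. The KO effect of Slc25a1 was lower in the SIRT6 than in the SIRT1 cohort by a difference of -0.16 (log2), and that of Slc25a39 by -0.18. The KO effect was higher in the SIRT6 cohort for Slc25a11 (0.14) and for Slc25a35 (0.26). The 24 h rhythm differed between the cohorts for Slc25a40 (adjusted p = 0.0239), which cycled in the SIRT1 cohort. It also differed for Slc25a48 (adjusted p = 0.04), which was named in advance from earlier results of these data. Slc25a48 was called rhythmic over both genotypes of the SIRT6 cohort, a call lost for 23 of 36 arrays left out in turn. Its difference between cohorts was lost for 19 of 72 arrays and with no filter. Both rhythm differences ended with the F test over times. Strain, cohort and deleted gene cannot be told apart in any of the 6.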

How the results depend on the processing

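Counts of carriers called were compared under each setting. In the SIRT6 cohort day average 3 were called; centred medians gave 1 (with 0 of the 3 in common), the replicate block 5 and 1 fit of 72 arrays 6 (each with 2 in common), array weights 9 and a threshold of 0.01 gave 1. In the SIRT1 cohort day average quantile normalization and centred medians gave 1 each and array weights 4, against 0. At single times of the SIRT6 cohort quantile normalization, centred medians and a threshold of 0.01 gave 0 and array weights 10, against 1; array weights gave 3 in the SIRT1 cohort, against 0. For rhythms, SIRT6 WT (3) gave 1 with quantile normalization, centred medians or a threshold of 0.01, 5 with array weights and 0 with the F test. SIRT6 KO (8) gave 5 with centred medians, and 3 with a threshold of 0.01 or the F test. SIRT1 WT (12) gave 4 with a threshold of 0.01 and 5 with the F test, and the SIRT6 cohort with both genotypes (10) gave 6 at 0.01. The KO-effect difference (4) gave 2 with centred medians. The rhythm difference between cohorts (2) gave 1 with no filter or without the pair of arrays named above, and 0 at 0.01 or with the F test; the SIRT6 cohort rhythm difference (0) gave 1 when adjusted over rhythmic genes. The causes were not tested.

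With each array left out in turn, counts ran from 2 to 4 (SIRT6 day average), 0 to 2 (SIRT1 day average, changed by WT ZT0 replicate 1, WT ZT12 replicate 3 and KO ZT20 replicate 1), 0 to 1 (SIRT6 single times, 4 ZT8 arrays), 0 to 0 (SIRT1 single times), 2 to 5 (SIRT6 WT rhythm, WT ZT4 replicate 1), 4 to 10 (SIRT6 KO rhythm, KO ZT4 replicates 2 and 3 and KO ZT16 replicate 3), 7 to 14 (SIRT1 WT rhythm, WT ZT16 replicate 1), 11 to 15 (SIRT1 KO rhythm), 9 to 14 and 19 to 23 (both genotypes, SIRT6 and SIRT1), 3 to 4 (KO-effect difference) and 1 to 3 (rhythm difference between cohorts). The day-averaged Slc25a48 difference of the SIRT1 cohort, 0.01 and not called, turned to -0.0013 with quantile normalization and ran from -0.0152 to 0.0393 over arrays left out. In all, 145 of 175 counts stayed within 1.5 times of the main count.

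Whether replicate numbers pair the samples is not known, and the main fits took them as unpaired. Same-numbered WT and KO arrays correlated over 0.1 in their deviations for 11 of 18 pairs in the SIRT6 cohort (median r 0.25, from -0.36 to 0.74). In the SIRT1 cohort 6 of 18 pairs did (median r 0.03, from -0.28 to 0.37). Pairing itself was not tested. With the block, the SIRT6 day average called Slc25a1, Slc25a48, Slc25a11, Slc25a12 and Slc25a51. Quantile normalization or centring moved the median of all genes by little (SIRT6 day average 0.0035, -0.0067 and -0.0041).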
